A study of Mus musculus with 12 samples.

Results

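Of the 2149 nuclear transcripts that had at least 100 reads in undifferentiated P19 cells, 20 (0.931%) carried a median poly(A) tail of at least 140 nt. These 20 transcripts, from 20 genes, were selected on their day 0 (D0) reads: the 3 D0 libraries were pooled, and both the read number and the median tail length of each transcript had to reach those limits. Values of D0 tails, and every tail difference from D0, are therefore given as a description without a test. P19 is a mouse embryonal carcinoma cell line of wild-type genotype that can form neurons. The D0 cells were kept in serum-containing medium, and cells at days 2, 4 and 6 (D2, D4 and D6) had been plated on poly-L-lysine in NDiff 227 medium with 500 nM retinoic acid. Each day had 3 libraries, 12 in all, which the paper describes as biological replicates. They were made from oligo(dT)-purified RNA and sequenced as native RNA on nanopores, so that 1 read gave the transcript and the length of its tail. The libraries held between 120326 and 613756 kept reads, the D2 libraries being the smallest, and the 20 transcripts took 3477 reads, or 0.22%, of the D0 total.

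The 3 libraries of a day were sequenced together in runs that held no other day, so that day and run cannot be told apart. Libraries were placed by their sample labels, since run names were ambiguous: those of the 3 D0 runs speak of undifferentiated or undifferentiating cells beside the text D2, and no day stands in the names of 2 of the 4 D6 runs. Marker levels differed between the days as follows. Of 11 embryonal carcinoma markers, 8 had reads at D0, with a summed level of 2074 to 2219 RPM (reads scaled to 1000000 kept reads of a library), and Zfp42, Dppa5a and Fgf4 were at 0 there. The same sum lay between 158.6 and 261.3 in the 9 later libraries. The sum of 13 neural markers was 577 to 590 RPM at D0 and 3286 to 3743 at D6. The sum of 16 markers of endoderm, mesoderm, glia and fibroblasts stayed between 8.31 and 46.7 RPM in all 12 libraries. In these bulk samples fewer cells of a type and less RNA per cell cannot be told apart, and the part of cell type in the abundance changes given here was not tested.

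A poly(A) tail is added to nearly every mRNA in the nucleus when the transcript is cut downstream of a signal, most often AATAAA or ATTAAA in the DNA letters. In the cytoplasm the tail is bound by poly(A)-binding proteins and is shortened by deadenylases, so that the tails of a transcript at any time are a mixture of newly made and older molecules. Abundant, long-lived mRNAs of housekeeping genes are known to have short to intermediate tails in many cell types. Over all 2149 transcripts the median of the D0 medians was 103.8 nt, with a 5th percentile of 86.5 nt and a 95th percentile of 127.2 nt.

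The last 30 bases before the most common D0 read end are shown for 7 of the transcripts, chosen for the longest tails (6820431F20Rik, Plagl1, Ifrd1 and Slc7a5), for the lack of either signal (Slc7a5, Sept11 and Ppp1cb) and for the tail nearest to the limit (Psph). They are written 5′ to 3′ on the transcript strand from the GENCODE transcripts on GRCm38 (mm10), with a signal in capitals.
6820431F20Rik, chr8:20268860-20268889, minus strand, exon of a noncoding transcript: agaAATAAAtactgtaaacataaatataaa
Plagl1, chr10:13131665-13131694, plus strand, 3′ UTR: tacatatAATAAAtgctaagcatctggcaa
Ifrd1, chr12:40203129-40203158, minus strand, 3′ UTR: caAATAAAgtgtttgtgatgtttggtcgta
Slc7a5, chr8:121881150-121881179, minus strand, 3′ UTR: tgttttttttaaaagctattggaattctaa
Sept11, chr5:93174929-93174958, plus strand, 3′ UTR: agtggggaaatatatttttacccaaccgtt
Ppp1cb, chr5:32492722-32492751, plus strand, 3′ UTR: tttctcatttagtaaaagttgtctaattga
Psph, chr5:129765562-129765591, minus strand, 3′ UTR: acagtaaATTAAAgacttttactcttgcaa

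AATAAA lay in the last 40 bases before the most common read end in 16 of the 20 transcripts (80%) and in 1558 of 2107 other transcripts with a reference sequence (73.9%). ATTAAA, counted only where AATAAA was missing, was in the window of Psph alone among the 20 (5%) and of 302 others (14.3%). Slc7a5, Sept11 and Ppp1cb had neither (15%), as had 247 others (11.7%). Only the transcript strand was searched. These shares were not tested against each other. The window held a median of 14.5 A bases in the 20 transcripts and 15 in the others.

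The long-tailed transcripts were long. Their median annotated length was 3809 nt against 1867 nt for the others, and 16 of the 20 were longer than that second value. Their annotated 3′ UTRs had a median of 1795 nt (19 transcripts with a stop codon) against 595 nt. The shortest was the nonsense-mediated decay isoform of Rpl12 with 729 nt, and the longest was Lrp2 with 15460 nt. The reads mostly covered less than this, with median alignments of 1029 nt in the 20 transcripts and 1000 nt in the others, so that in most transcripts the 3′ part was what was observed. In Kpna2 and Cd9 the median alignment was nearly as long as the transcript, 1885 of 2054 nt and 1133 of 1228 nt. Over the 2127 transcripts with a reference sequence, Spearman's rho between length and D0 median tail was 0.242, a description over transcripts of the same libraries.

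**Figure D1:**
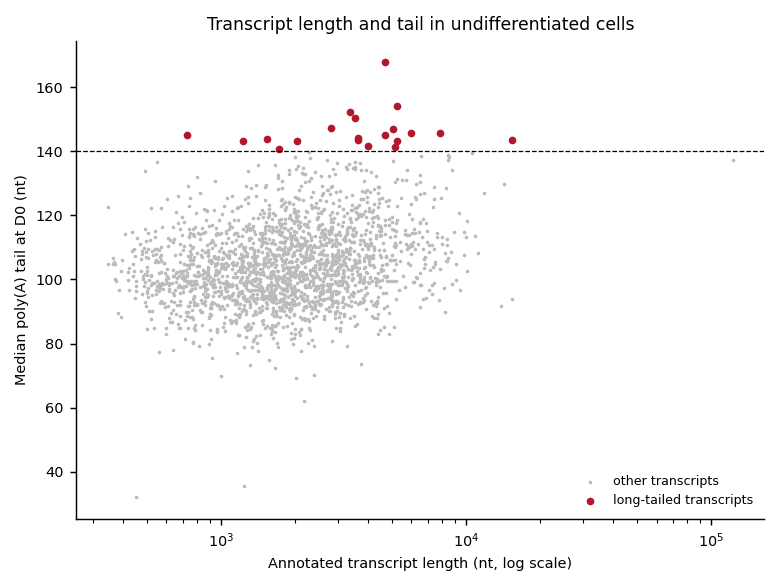
Annotated transcript length (nt, log axis) against the median poly(A) tail at D0 (nt) for the 2127 transcripts with at least 100 D0 reads and a reference sequence; red points are the 20 long-tailed transcripts and the dashed line is the limit of 140 nt. The red points span lengths from 729 to 15460 nt, and most lie to the right of the middle of the grey cloud.

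Read ends did not always match the annotated ends. The most common end is the single position at which the largest number of D0 reads of a transcript stopped, which need not be a majority of them. In 5 of the 20 transcripts it lay over 100 nt before the annotated one, which was also so for 703 of the others (33.4%). The distance was 1562 nt in Ifrd1, 2772 nt in Ppp1cb and 5318 nt in Bcat1. At least 88.6% of the reads of each of these 3 transcripts stopped within 25 nt of that upstream end, so that the long 3′ UTRs in the annotation were mostly not used in these reads. In Actr2 the single position lay 277 nt upstream, but within 25 nt of it stopped 38.7% of the D0 reads and within 25 nt of the annotated end 50.7%. In Ddx3x 37.1% of the D0 reads reached the annotated end and the rest stopped elsewhere.

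Of the 20 transcripts, 18 were annotated as protein coding, 6820431F20Rik as a processed transcript without a coding sequence and the Rpl12 isoform as a target of nonsense-mediated decay. Of the 20, 8 were in any of 20 lists of gene functions, as were 933 of the 2149 transcripts (43.4%). Cd9, Lrp2 and Slc7a5 were in the list of membrane and adhesion genes (64 transcripts with 100 D0 reads). Ddx3x and Hnrnpul2 were among 120 transcripts of RNA binding and splicing genes, and Actr2 among 59 of the cytoskeleton. Psph was among 35 of tRNA synthetases and one-carbon metabolism, and the Rpl12 isoform among 198 of ribosomal proteins and related factors. None of the 7 pluripotency transcripts, 10 immediate early and growth response transcripts or 7 neuronal transcripts with enough reads was long-tailed, and their lists had median D0 tails of 110.6, 113.4 and 108.4 nt. No list had a median D0 tail above 113.4 nt.

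The D0 medians of the 20 transcripts lay between 140.7 and 167.7 nt. In 4 transcripts (6820431F20Rik, Slc7a5, Txnip and Ddx3x) all 3 library medians were at least 140 nt, in 12 it was 2 of the 3, and in 4 it was fewer. The nearest transcripts inside the limit were Psph at 140.7 nt, Hnrnpul2 at 141.4 nt and Khsrp at 141.8 nt. Just outside were Idh1 at 139.7 nt, Pgap1 at 139.4 nt and Tnpo1 at 139.0 nt, so that the limit cuts through a continuous edge.

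The choice was repeated with 1 D0 library left out at a time, with at least 67 reads asked for in the other 2. It then found 24 transcripts without replicate 1, 32 without replicate 2 and 16 without replicate 3, of which 16, 19 and 12 were among the 20. In the library that had not been used, the chosen transcripts had median tails of 136.1, 133.5 and 147.4 nt, against 100.7, 103.5 and 105.9 nt for the transcripts not chosen. There, 10 of 24, 10 of 32 and 11 of 16 reached 140 nt, which 1.73%, 0.865% and 2.04% of the transcripts not chosen did. The tails of the chosen transcripts were thus longer than those of the rest in a library that had no part in the choice, but fewer of them passed the limit.

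Single reads of these transcripts were widely spread. The quartiles of the 6820431F20Rik tails at D0 were 117.0 and 254.2 nt, and those of the Psph tails 93.8 and 174.4 nt. Of all D0 reads of the 20 transcripts, 20.4% ± 1.02 (SD, n = 3 libraries) had tails over 200 nt, against 5.03% ± 0.297 of reads of the other transcripts. Tails under 30 nt made up 0.997% ± 0.261 and 2.09% ± 0.329. The median speed of the molecule through the pore, which enters the estimate of tail length, was 115.9 nt per second in D0 reads of the 20 transcripts and 111.6 in the others. The same medians were found on each later day, and the part of speed in the tail difference was not tested.

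The 3 D0 runs gave the 20 transcripts median read tails of 149.2, 146.6 and 139.3 nt, while those of the other transcripts were 101.4, 100.6 and 99.9 nt. The difference between the groups was therefore 47.8, 46.0 and 39.4 nt. In 4 transcripts (6820431F20Rik, Plagl1, Ifrd1 and Slc7a5) the median reached 140 nt in each of the 3 runs. Ddx3x was at 142.8 and 153.2 nt in 2 runs and at 117.4 nt in the other.

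On later days most of the 20 transcripts still had longer tails than the other transcripts. The median over the 20 was 144.5 nt at D0, 134.9 nt at D2, 135.6 nt at D4 and 142.0 nt at D6. For the other 2129 transcripts it was 103.8, 99.3, 101.2 and 104.6 nt. Of the transcripts with at least 30 reads on a day, 7 of 16 long-tailed ones still had a median of at least 140 nt at D2, 8 of 19 at D4 and 11 of 19 at D6. This was so for 1.13%, 0.773% and 3.33% of the others. All 20 were above the median of the others at D2 and D6, and 19 were at D4, where Psph was the exception; 15 of the 20 were above the 95th percentile of the others on each of the 3 days.

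Pooled over reads in place of transcripts, the 20 transcripts had median tails of 146.2, 135.4, 139.6 and 146.7 nt on the 4 days, and the others 100.8, 93.5, 91.9 and 93.6 nt. The distance between the groups was thus wider at D4 and D6 than at D0 on this measure, while the median over transcripts gave a distance at D2, D4 and D6 that was smaller than at D0. 6820431F20Rik, with the longest tails, gave 213 of 3477 reads at D0 and 467 of 2073 at D6. Within runs the distance was 36.3, 56.7 and 47.7 nt at D2, 46.8 to 47.6 nt at D4 and 52.8, 40.7, 55.7 and 61.3 nt in the 4 D6 runs. Tails over 200 nt made up 19.4% ± 0.910 of the reads of the 20 transcripts at D2, 24.0% ± 0.996 at D4 and 26.9% ± 3.41 at D6 (SD, n = 3 libraries), and 5.03%, 5.59% and 6.47% of those of the others.

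**Figure D2:**
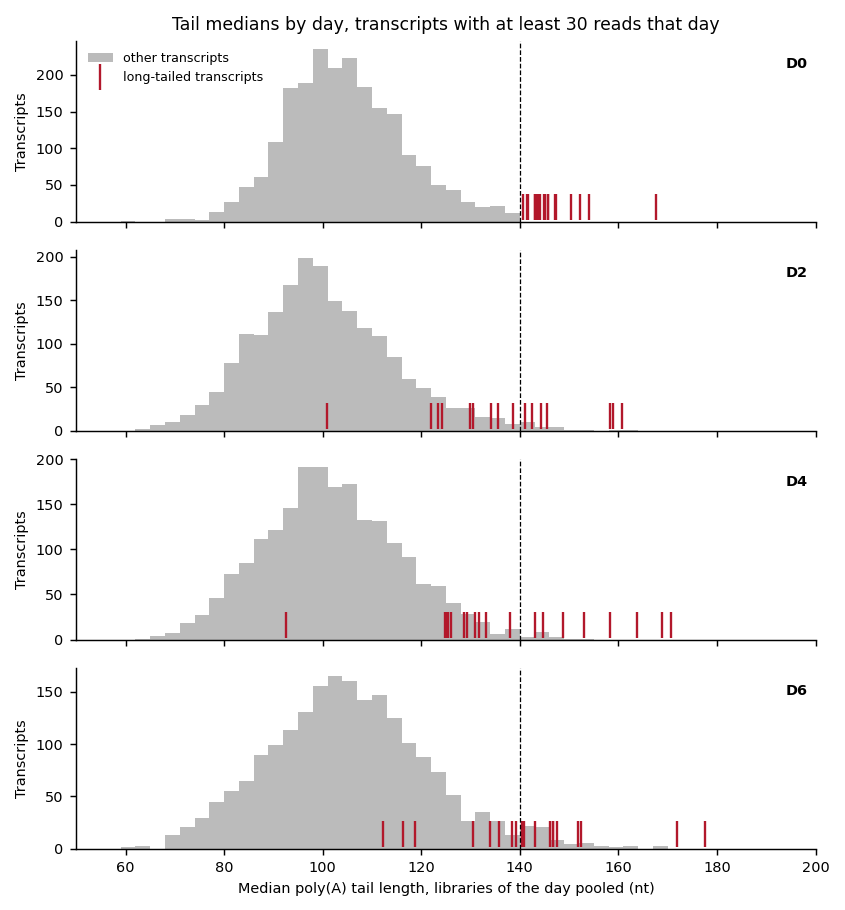
Median tail length (nt, axis limited to 50 to 200 nt) of transcripts with at least 30 reads on each day, with the libraries of the day pooled; grey bars count other transcripts, red ticks are long-tailed transcripts and the dashed line is 140 nt. The ticks lie beyond the line at D0 by selection, and at D2, D4 and D6 they spread to both sides of it, with 7, 8 and 11 of them at or above it.

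Compared with D0, the median tail was shorter in 15 of the 20 transcripts at D2, 14 at D4 and 12 at D6. The median difference was -11.1 nt at D2, -8.83 nt at D4 and -3.85 nt at D6. The others were shorter in 65.1%, 59.2% and 47.1% of cases, with median differences of -4.39, -2.28 and 0.97 nt. Because high D0 values chose the 20 transcripts, a smaller value on another day is not evidence of shortening.

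Tails could be tested among D2, D4 and D6, which had no part in the choice. All but Lrp2, which had too few reads, entered a limma fit over 4181 transcripts in 9 libraries. None of the 19 passed an adjusted p of 0.05 in any of the 3 comparisons. At an unadjusted p under 0.05 there was 1 transcript for D4 against D2 (Actr2), 1 for D6 against D2 (Ddx3x) and 0 for D6 against D4. Beside them, 235, 367 and 310 of all 4181 transcripts were under that limit in the same 3 comparisons. Of all transcripts tested, 0% were called longer and 0% shorter for D4 against D2 and for D6 against D2. For D6 against D4, 0.0478% were called longer and 0% shorter, so that hardly any call was made anywhere at this depth.

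The estimated differences were wide. For D6 minus D2 the largest increases were 33.4 ± 17.6 nt (SE) in Gpt2, 27.4 ± 21.4 nt in Plagl1 (on 11 reads at D2), 21.3 ± 12.7 nt in Rsl24d1, 20.9 ± 14.3 nt in Ifrd1 and 20.2 ± 10.7 nt in 6820431F20Rik. The largest decreases were -24.1 ± 17.5 nt in Txnip, -20.6 ± 11.1 nt in Actr2, -9.52 ± 11.3 nt in Ppp1cb, -7.05 ± 14.9 nt in Sept11 and -3.51 ± 22.2 nt in Rpl12. The limma adjusted p values of these 10 transcripts ran from 0.6075 to 0.9734. The median difference over the 19 was 7.55 nt, beside 5.10 nt over all transcripts tested.

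**Figure D3:**
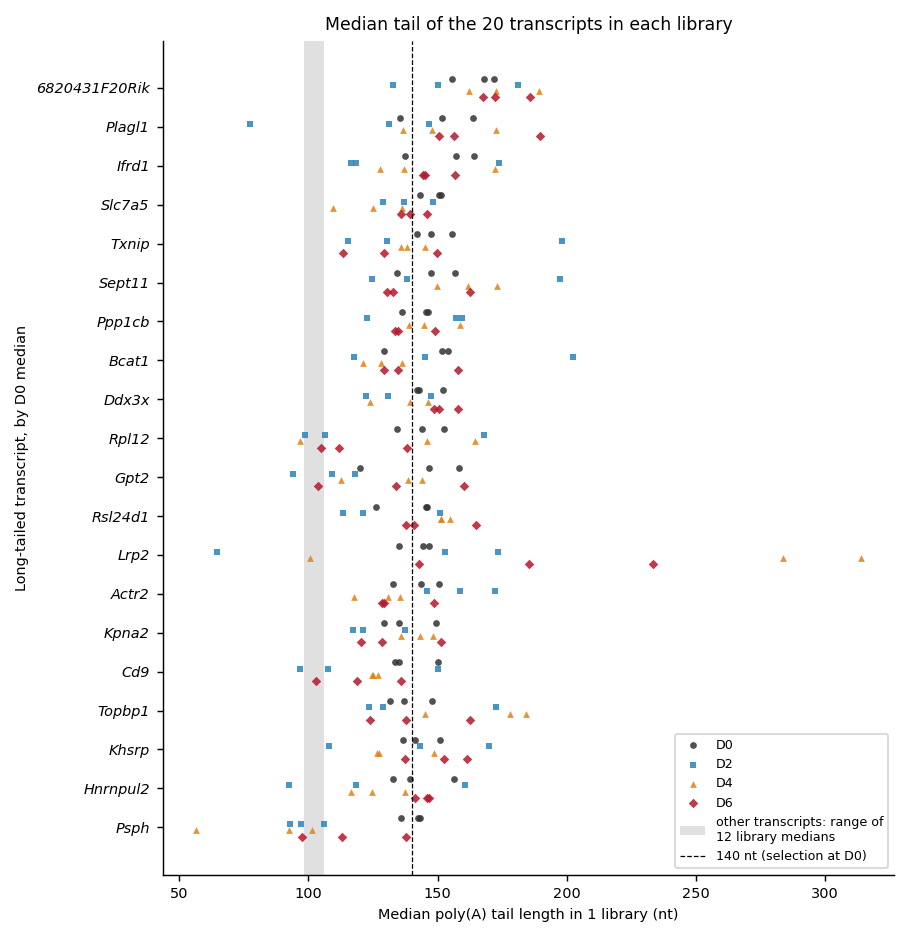
Median poly(A) tail length (nt) of the 20 long-tailed transcripts, 1 point for each of the 12 libraries, with colour and shape for the day; the grey band is the range of the 12 library medians of the other transcripts and the dashed line is 140 nt. Points of D2, D4 and D6 lie to both sides of the line, and points of several transcripts lie in or below the grey band, the lowest being Psph in 1 D4 library at 56.4 nt.

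Abundance was tested for all 20 transcripts in a limma-voom fit over 12356 transcripts. The rule asked for 100 reads at D0, so counts of calls are given beside those of all 2149 transcripts that met the same limit. At D6, 10 of the 20 were lower than at D0 and 1 was higher at an adjusted p of 0.05. In the 2149 transcripts 42.4% were lower and 10.3% higher, and in all transcripts tested 15% were lower and 14.6% higher. At D4, 9 were lower and 2 higher, beside 26.6% lower and 12.2% higher of the 2149 (9.86% and 10.3% of all tested). At D2, 4 were lower and 0 higher, beside 13.2% and 3.49% (3.78% and 3.42% of all tested). The libraries of D0 and D6 did not overlap in 10 of the 20 transcripts with lower values at D6 and in 1 with higher values, which was so for 47.3% and 13.4% of the 2149. The median log2 change of the 20 was -0.33, -0.31 and -0.53 at D2, D4 and D6, and that of the 2149 was -0.14, -0.15 and -0.37. The share of falling transcripts among the 20 at D6 was thus near that of the transcripts under the same read limit.

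**Figure D4:**
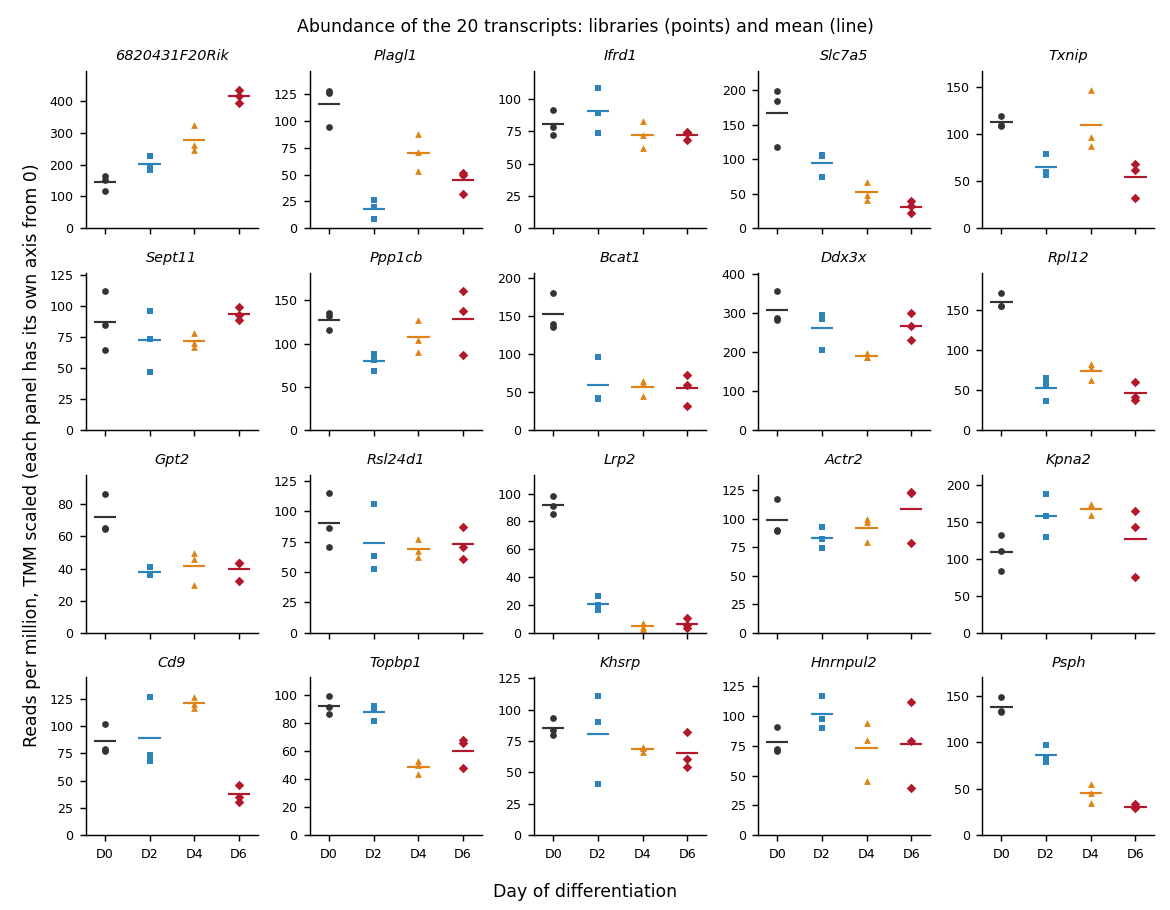
Abundance of the 20 transcripts in RPM after TMM scaling, 1 panel per transcript with its own axis from 0; points are the 3 libraries of each day and lines their mean. 6820431F20Rik rises from a mean of 144.2 at D0 to 415.4 at D6, whereas Slc7a5, Psph and Lrp2 fall to means of 31.1, 30.6 and 6.47 at D6.

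The transcript with the longest D0 tail was the only one of the 20 called higher at D6. 6820431F20Rik had library medians of 171.9, 168.1 and 155.7 nt at D0 (165.2 ± 8.50 nt, SD), 132.9, 150.3 and 181.1 nt at D2, 172.6, 189.3 and 162.3 nt at D4, and 172.2, 185.9 and 167.4 nt at D6. The D4 and D6 libraries were all above 140 nt, and 1 library of D2 was below. Its abundance, here and below in RPM after TMM scaling, was 116.9, 165.2 and 150.5 RPM in the D0 libraries and 435.1, 417.6 and 393.5 in the D6 libraries, with no overlap. The log2 change was 1.52 ± 0.15 (SE) at D6 (limma-voom adjusted p = 3.325e-11) and 0.94 ± 0.16 at D4 (adjusted p = 1.538e-05). It gave 467 of the 2073 D6 reads of the 20 transcripts. The most common end held 52.6% of its D0 reads, 574 nt before the annotated one.

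Slc7a5, Bcat1, Psph and Gpt2 act in amino acid supply and metabolism, a grouping made after the 20 transcripts and their changes were seen. All 4 were called lower at D6, as were 42.4% of the transcripts under the same read limit, and the Gpt2 call depended on single libraries. Slc7a5, the large neutral amino acid transporter of the plasma membrane, was at 184.7, 118.0 and 198.5 RPM at D0 and at 32.1, 39.5 and 21.9 at D6. The groups were far apart, with a log2 change of -2.33 ± 0.29 (limma-voom adjusted p = 9.837e-09). Its tail medians were 143.2, 150.7 and 151.2 nt at D0, 148.1, 136.9 and 128.8 nt at D2, 109.5, 136.4 and 125.0 nt at D4 and 145.8, 135.8 and 139.2 nt at D6. All 3 D4 libraries were thus below all 3 D0 libraries, but the D0 tails had been chosen as high.

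Psph, the phosphatase of the last step of serine synthesis, had the shortest tails of the 20 on each later day. Its library medians were 135.9, 143.2 and 142.4 nt at D0, 92.8, 97.2 and 105.8 nt at D2, 101.2, 92.6 and 56.4 nt at D4 and 137.7, 112.9 and 97.6 nt at D6. All D2 and D4 libraries were below every D0 library, and at D6 1 library was within the D0 range. Since the D0 tails had been chosen as high, these lower values are not evidence of shortening. Pooled over each day, from 35 to 49 reads, the later medians were 100.8, 92.6 and 112.3 nt, close to those of the other transcripts. Its abundance was 133.3, 132.5 and 148.4 RPM at D0 and 28.5, 33.2 and 30.1 at D6, a log2 change of -2.11 ± 0.27 (limma-voom adjusted p = 1.152e-08). In its list of tRNA synthetases and one-carbon metabolism, 34 of 35 transcripts were lower at D6 and 0 higher, beside 42.4% and 10.3% of all 2149 transcripts under the same read limit.

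Bcat1, the cytosolic branched-chain amino acid transaminase, was at 180.0, 139.8 and 135.8 RPM at D0 and at 32.1, 72.7 and 60.1 at D6. The log2 change of -1.41 ± 0.25 (limma-voom adjusted p = 1.062e-05) was already -1.26 ± 0.30 at D2 (adjusted p = 0.004709), although the D2 call was lost without D2 replicate 3 and with a mapping quality of at least 10 (range over all alternatives -1.75 to -1.04). Its pooled tail medians were 145.7, 144.4, 130.9 and 147.6 nt on the 4 days, with no steady direction. Of its D0 reads, 62.6% had a mapping quality below 10. A second annotated Bcat1 transcript with 43 D0 reads had a median of 151.1 nt. Gpt2, the mitochondrial alanine aminotransferase, was lower at D6 by a smaller amount (log2 change -0.79 ± 0.27, limma-voom adjusted p = 0.02106). That call was lost when D0 replicate 1 or any D6 library was left out, with log2 changes of -0.84 to -0.64 over all alternatives tried. Its tails had the largest spread at D0, 158.4, 120.1 and 146.6 nt.

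Txnip, a thioredoxin-binding arrestin that restrains glucose uptake, had D0 tail medians of 155.4, 141.9 and 147.4 nt. It was lower at D6 (log2 change -1.04 ± 0.25, limma-voom adjusted p = 0.00094), but at D4 its libraries of 87.3, 146.9 and 96.9 RPM spanned the D0 values of 109.9, 119.8 and 108.7. Of its D0 reads, 95.2% had a mapping quality below 10, which can happen when another annotated transcript matches a read nearly as well. Such reads were the majority at D0 in 4 of the 20 transcripts (Txnip, Bcat1, Kpna2 and Rpl12) and in 27.2% of the others. Which other transcripts matched these reads was not tested, and Txnip could not be tested on reads of higher mapping quality.

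Plagl1, which encodes an imprinted zinc finger transcription factor, had the second longest D0 tail of the 20. Its D0 libraries had medians of 135.5, 151.8 and 163.8 nt (150.4 ± 14.2 nt, SD), the D4 libraries 172.7, 136.8 and 147.8 nt and the D6 libraries 189.7, 156.3 and 150.5 nt. At D2 only 11 reads were left, so that its library medians of that day, and the tail difference from D2 given above, rest on very few reads. Its abundance fell from 126.2, 94.4 and 127.5 RPM at D0 to 8.17, 20.1 and 26.4 at D2, and was 70.7, 53.0 and 87.7 at D4 and 32.1, 49.9 and 51.9 at D6. All libraries of each later day were below those of D0, and the lowest values were at D2. The log2 change was -2.45 ± 0.45 at D2 (limma-voom adjusted p = 0.000132), -0.71 ± 0.23 at D4 (adjusted p = 0.02056) and -1.31 ± 0.26 at D6 (adjusted p = 6.842e-05). The D4 call was lost when D0 replicate 1, D0 replicate 3 or D4 replicate 2 was left out, and also with the replicate block, with limma-trend and without a filter on low counts. The change ranged from -0.91 to -0.48 over all alternatives.

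Ifrd1, a transcriptional co-regulator that responds to growth factors and stress, kept its abundance within the spread of the libraries. It was at 72.5, 78.1 and 91.9 RPM at D0 and at 74.9, 68.6 and 73.8 at D6. Its tail medians were 164.1, 137.4 and 157.0 nt at D0, 173.9, 116.6 and 118.3 nt at D2, 127.7, 137.0 and 172.1 nt at D4 and 144.4, 145.3 and 156.5 nt at D6, and the days overlapped. Topbp1, a scaffold of the replication checkpoint, was lower at D4 (log2 change -0.92 ± 0.24, limma-voom adjusted p = 0.004103) and at D6 (-0.66 ± 0.23, adjusted p = 0.02151). The D6 call was lost without D0 replicate 2 or D6 replicate 2 and with limma-trend (range -0.73 to -0.41). Kpna2, an importin that carries nuclear cargo, was higher at D4, at 170.5, 173.4 and 159.2 RPM against 109.9, 83.5 and 131.6 at D0. That log2 change of 0.66 ± 0.21 (limma-voom adjusted p = 0.01729) was no longer called without D0 replicate 2 or D4 replicate 2 and with limma-trend (range 0.46 to 0.82), and it could not be tested with a mapping quality of at least 10, which 98.1% of its D0 reads did not reach.

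Ddx3x, a DEAD-box RNA helicase in translation initiation, had the most D0 reads of the 20, 445. Its tail medians were 141.8, 142.6 and 152.2 nt at D0, 122.2, 147.5 and 130.7 nt at D2, 139.5, 123.9 and 146.2 nt at D4 and 150.6, 148.6 and 158.0 nt at D6. The 3 D6 libraries were above those of D2 and D4 and overlapped those of D0. For D6 minus D2 the difference was 17.9 ± 8.19 nt (SE), with a limma unadjusted p of 0.04472 and an adjusted p of 0.5435. Its abundance was lower at D4 only, by -0.66 ± 0.16 on the log2 scale (limma-voom adjusted p = 0.001371), and at D6 the libraries overlapped those of D0.

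Khsrp, Hnrnpul2 and Rsl24d1 passed no abundance test on any day. Khsrp is a KH-domain protein of AU-rich element decay and splicing, Hnrnpul2 an RNA-binding hnRNP-like protein and Rsl24d1 a factor of large ribosomal subunit assembly. Their log2 changes at D6 were -0.40 ± 0.24, -0.06 ± 0.26 and -0.27 ± 0.23. The D4 libraries of Khsrp, at 66.5, 69.9 and 69.2 RPM, were all below its D0 libraries of 93.5, 79.9 and 83.6. That fall did not pass the test (log2 change -0.29 ± 0.24, limma-voom adjusted p = 0.424). Rsl24d1 had tail medians of 126.3, 145.8 and 145.7 nt at D0, 113.4, 121.1 and 151.0 nt at D2 and 154.9, 151.2 and 151.3 nt at D4. The D4 libraries of Rsl24d1 were all above its D0 libraries. In the list of RNA binding and splicing genes, 37 of 120 transcripts were lower at D6 and 8 higher, beside 42.4% and 10.3% of all 2149 transcripts under the same read limit.

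Rpl12 gave the only long-tailed transcript among the 198 of its list. Rpl12 encodes a protein of the large ribosomal subunit. The isoform annotated as a decay target had a D0 median of 145.0 nt on 233 reads, while the main coding isoform had 98.8 nt on 4524 reads. On later days the decay isoform was at 128.4, 126.0 and 116.2 nt and the coding one at 88.4, 82.3 and 78.1 nt. The decay isoform was above the coding isoform on each later day, and at D0 it was chosen for its tail. Both retained-intron transcripts of the gene, with 10 to 29 reads on each later day, had medians of 96.8 and 121.8 nt at D2, 112.8 and 88.6 nt at D4 and 155.2 and 110.9 nt at D6, so that 1 of them was above the decay isoform at D6. Its abundance fell from 154.3, 154.3 and 171.3 RPM at D0 to 60.6, 37.4 and 41.0 at D6 (log2 change -1.84 ± 0.24, limma-voom adjusted p = 1.933e-08). In its list, 164 of 198 transcripts were lower at D6 and 0 higher, beside 42.4% and 10.3% of all 2149 transcripts under the same read limit. Of its D0 reads, 52.8% had a mapping quality below 10.

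Of the membrane proteins, Lrp2 fell most. Lrp2 encodes megalin, a large endocytic receptor of epithelia and the neuroepithelium. It was at 98.2, 90.8 and 85.7 RPM at D0, 16.3, 20.1 and 26.4 at D2, 4.16, 2.41 and 6.92 at D4 and 3.57, 10.4 and 5.47 at D6. These are 133 reads at D0 and 12, 5 and 8 reads on the later days. Every later library was below every D0 library, with log2 changes of -1.95 ± 0.40, -4.03 ± 0.53 and -3.55 ± 0.48 (limma-voom adjusted p = 0.0006387, 5.39e-08 and 4.88e-08). With so few reads its later tails are not described here, although they are among the 20 in the counts over all long-tailed transcripts given above.

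Cd9, a tetraspanin of the plasma membrane, was lower at D6. Its libraries were at 79.5, 101.7 and 77.3 RPM at D0, 116.4, 120.5 and 126.9 at D4 and 46.4, 35.3 and 30.1 at D6. The D4 libraries were all above D0 without passing the test (log2 change 0.50 ± 0.21, limma-voom adjusted p = 0.07873), which they passed when at least 120 reads over the libraries were asked for (adjusted p = 0.04518), and the log2 change at D6 was -1.23 ± 0.27 (adjusted p = 0.0003871). Its pooled tail median was 143.2 nt at D0, 124.2 nt at D2, 124.8 nt at D4 and 118.7 nt at D6. All later values were lower than the D0 value, which had been chosen as high, so they are not evidence of shortening. In the list of membrane and adhesion genes, 29 of 64 transcripts were lower at D6 and 6 higher, near the 42.4% and 10.3% of all 2149 transcripts under the same read limit.

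The 3 cytoskeletal and signalling transcripts passed no abundance test on any day, although Ppp1cb was called lower at D2 without a filter on low counts. Sept11, a septin GTPase, Actr2, a subunit of the Arp2/3 complex that branches actin filaments, and Ppp1cb, a catalytic subunit of protein phosphatase 1, had log2 changes at D6 of 0.14 ± 0.22, 0.17 ± 0.20 and -0.04 ± 0.20. Actr2 had tail medians of 172.2, 158.8 and 146.0 nt at D2 and 135.4, 117.4 and 130.9 nt at D4. These 2 days did not overlap, and the difference of -30.4 ± 11.4 nt (SE) had a limma unadjusted p of 0.01751 and an adjusted p of 0.88. Sept11 had tail medians of 149.8, 173.0 and 161.9 nt at D4 and 132.5, 130.5 and 162.5 nt at D6. In the list of cytoskeletal genes, 20 of 59 transcripts were higher at D6 and 13 lower, beside 10.3% and 42.4% of all 2149 transcripts under the same read limit.

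In 6 of the 20 transcripts fewer than 70% of D0 reads stopped at the most common end, and the tails at that end could be set beside those elsewhere in the libraries of D2, D4 and D6, which had no part in the choice. Hnrnpul2 had a median of 150.1 nt on 147 reads at its most common D0 end, which is the annotated one, and 118.3 nt on 86 reads elsewhere. The tails at the end were longer in 7 of the 9 libraries. For Ddx3x the medians were 150.4 nt on 204 reads and 132.1 nt on 454 reads, longer at the end in 6 of 9 libraries. Gpt2 had 140.7 nt on 47 reads and 119.4 nt on 64 reads, longer at the end in 6 of 9 libraries, and 6820431F20Rik had 177.9 and 165.4 nt, longer in 5 of 9. Lrp2, the other of the 6, had too few later reads for this. Actr2 had 135.5 nt on 139 reads at its upstream position and 140.2 nt on 133 reads elsewhere, the annotated end included, and the upstream tails were longer in 4 of 9 libraries. These differences were not tested.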

How the data were processed

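Native poly(A) RNA from 12 libraries of P19 cells was sequenced on nanopores. For base calling the authors used Guppy, for alignment to GENCODE vM17 on mm10 Minimap2 (version 2.20 in the submitters' notes), for tail lengths Nanopolish and for barcodes Deeplexicon. Their deposited table has 1 line per alignment. The tail length in nt, the read position and the speed in nt per second were not normalized by the authors, the deposited mapping quality is a score, and the barcode confidence deposited by the authors is a fraction. A deposited table that holds only fold changes and p-values of the authors' own comparisons was not used. Oligo(dT) purification may lose short tails.

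Lines with an assigned barcode, a PASS tag and a nuclear mRNA that is not a pseudogene were kept, 4274320 of 6306434. Reads were counted per transcript and library, and limma-voom (limma 3.58.1, R 4.3.3) was fitted where the 12 libraries together gave 30 reads or more, with TMM scaling written for this work. Median tails of D2, D4 and D6 libraries, weighted by 100n/(n + 100) for n reads, were fitted with limma where libraries averaged 10 reads or more. Adjusted p-values are Benjamini-Hochberg over all transcripts, called at 0.05. The fits were tested on simulated data. Depth limits tails most at D2. Named transcripts were the 10 longest at D0, the largest changes (5 each way) in abundance at D6 and in tail from D2 to D6, those with most D0 reads and those at the limit. Kpna2, Topbp1 and Cd9 met none of these rules and were described after their values were seen. The transcripts and lists were chosen with earlier results of these data known. Reference transcripts (GENCODE vM21 on GRCm38) matched 2127 of the 2149 transcripts, all with the coordinates of the table.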

Additional observations from a re-analysis of the deposited data

How the results depend on the processing

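The number of long-tailed transcripts depends on the limits: 80 with a median of at least 130 nt, 4 with at least 150 nt, 93 with at least 50 D0 reads and 6 with at least 200 D0 reads. Leaving out 1 D0 library gave 16 to 32 transcripts, the most without D0 replicate 2. The counts with a mapping quality of at least 10, a barcode confidence of at least 0.75, each read name counted once or the mean of the library medians were 19 or 20, of which 16 to 20 were shared with the 20 described. The median tail of the 20 transcripts moved by less than the spread between libraries under each of these read filters.

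At D2, 9 transcripts were lower without a filter on low counts. At D4, 1 was higher with a mapping quality of at least 10, which left 18 of the 20 testable, and 1 with limma-trend; 3 were with at least 120 reads over the libraries, where Cd9 was added. The counts of higher transcripts ran from 1 to 2 over the fits that left out a library, being 1 without D0 replicate 2 or D4 replicate 2. At D6 they ran from 1 to 2, being 2 without D6 replicate 2, where Kpna2 was added. The cause was not tested. Of 26 calls in abundance, 20 held under every alternative in which they could be tested (Txnip at D6 could not with a mapping quality of at least 10), none reversed, and 7 of 34 changes not called passed under at least 1. None of the 19 transcripts in the tail fit had a tail call under any alternative run; Lrp2 was not tested. Over all transcripts tested, D2 had 422 higher and 467 lower calls, and 6610 and 1399 without a filter on low counts. The other alternatives gave 265 to 484 higher and 223 to 488 lower at D2, 831 to 1276 and 762 to 1267 at D4 (1278 and 1218 as reported), and 975 to 1966 and 1042 to 1852 at D6 (1800 and 1857 as reported).

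Replicate numbers mark barcodes. Deviations of same-numbered libraries correlated between -0.29 and 0.32 in abundance, with 5 of 18 pairs over 0.1, and between -0.07 and 0.07 in tails. Those of libraries with different numbers ran from -0.35 to 0.38 in abundance and from -0.08 to 0.06 in tails. The numbers were therefore not taken as pairs. With the replicate block, 7 transcripts were lower at D4 in place of 9, the calls of Plagl1 and Gpt2 being lost, and 10 were lower at D6, as without it.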
